A study of Mus musculus with 8 samples.

Results

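The mitochondrial ribosomal proteins are described here in the uterus of mice that inhaled electronic cigarette aerosol. They were taken as every gene whose symbol in the platform annotation begins with Mrpl or Mrps followed by a digit, and 76 of the 19505 genes measured were found, each on 1 probe set. Of these, 48 carry a large subunit symbol (Mrpl) and 28 a small subunit symbol (Mrps). Whole uterus of 8 wild-type C57BL/6J females, an inbred strain, was profiled on arrays on day 4.5 of pseudopregnancy, the state that follows mating to a vasectomised male, with no embryo present. The ecig group comprised 4 mice exposed to aerosol of propylene glycol and vegetable glycerin (55 to 45) with 24 mg/mL nicotine and no flavouring. It was drawn at 2 puffs a minute in daily sessions of 3 hours, over 4 weeks of 5 exposure days that preceded mating and on every day from mating until the tissue was taken. In the sham group, 4 females of the same strain and state were given room air. Each array held 1 mouse, and values are the deposited log2 expression values unless a percentage or fold is named. With 1 array a mouse, the small number of mice limits how precisely any value is known. The comparison asks whether the aerosol alters the expression of these genes in the uterus at this stage.

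Mitochondria keep a small genome of their own, which encodes core subunits of the respiratory chain and ATP synthase, and translate it on a ribosome of their own. All of the protein subunits of that ribosome are encoded in the nucleus, made in the cytosol and imported. Its large subunit forms the peptide bond and holds the exit tunnel, which faces the inner membrane, and its small subunit binds and decodes the mRNA. About the bacterial-type core lie proteins that only mitochondria have. Some symbols do not match the place of the protein in the mammalian ribosome: Mrps18a and Mrps30 sit in the large subunit, and the product of Mrps36 belongs to the 2-oxoglutarate dehydrogenase complex.

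All 76 members lay above the 25th percentile of mean value over all probe sets, and 68 lay above the 50th. Their means over the 8 mice ran from 6.20 to 10.03 with a median of 8.05, where the median of the array was 7.08. Defining markers of the labelled tissue were bright. Acta2 of smooth muscle averaged 12.77 in ecig and 12.91 in sham mice, Col3a1 of stroma 11.74 in ecig and 12.13 in sham mice, and Cdh1 of epithelium 10.75 in ecig and 10.98 in sham mice. Ecig mice 4 and 2 stood apart from the other arrays. Their mean correlation with the others over all probe sets was 0.9768 and 0.9816, and it was 0.9858 to 0.9875 for the other 6. Results are therefore given with and without these mice, a choice made with that standing apart known. Another measure gave a different order. The limma array weights, lower for arrays further from their group means, were 0.4913, 0.721 and 0.7871 for ecig mice 4, 1 and 2. The other mice had weights of 1.068 to 1.739, so ecig mouse 1 stood apart as well by this measure.

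Most mitochondrial ribosomal protein genes had a lower mean in ecig mice, by small amounts, and none passed the test. The mean was lower in ecig mice for 66 of the 76 members (86.8%), and the background over all 22206 probe sets was 49.5%. The median log2 difference, ecig minus sham, was -0.12 over the members and 0.00 over all probe sets. Single members ran from -0.51 for Mrpl20 to 0.14 for Mrps31, and 67 of the 76 lay within 1.2-fold. After Benjamini-Hochberg adjustment across the whole array, limma called 0 members and 0 probe sets (0.0% of the array), with the smallest adjusted p among the members at 0.838. At an unadjusted p under 0.05 in limma there were 3 members lower (Mrpl20, Mrpl32 and Mrpl39), against 2.5% of the array, and 0 members higher, against 2.91% of the array. In 1 member, Mrpl39, all 4 ecig mice lay below all 4 sham mice, which held for 1.35% of the array, and in 0 members did they all lie above, against 1.38% of the array. The members' counts of 3 and 1 out of 76 are near these background shares.

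The low values were those of ecig mice 4 and 2. When each gene was set against its own sham mean, the median over the 76 members was 0.04 in ecig mouse 1, -0.19 in ecig mouse 2, -0.02 in ecig mouse 3 and -0.27 in ecig mouse 4. In the sham mice it was -0.04, 0.06, 0.04 and -0.05 for mice 1 to 4. Ecig mice 1 and 3 therefore lay within the span of the sham mice, and ecig mice 2 and 4 lay below it. Over all probe sets the same median was between -0.01 and 0.01 in every mouse.

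The same was seen in how many members left the sham range. Ecig mouse 4 lay below all 4 sham mice in 52 of 76 members (68.4%, and 28.2% of all probe sets), and ecig mouse 2 in 47 (61.8%, and 25.2% of all probe sets). Ecig mouse 1 did so in 12 members (15.8%, and 21.8% of all probe sets) and ecig mouse 3 in 7 (9.21%, and 21.2% of all probe sets). Values above all sham mice were found in 18, 1, 13 and 7 members for ecig mice 1 to 4, and over all probe sets in 19.4%, 27.7%, 19.6% and 31.2%. Ecig mice 2 and 4 held the 2 lowest values of all 8 mice in 35 members, against 11.6% of all probe sets. The single lowest value belonged to ecig mouse 4 in 41 members (20.2% of all probe sets), to ecig mouse 2 in 18 (13.2% of all probe sets), to ecig mouse 1 in 6, to ecig mouse 3 in 1 and to a sham mouse in 10. Without ecig mice 2 and 4 the median difference was 0.01 and 33 of the 76 members were lower. Only ecig mice 1 and 3 are then set against the 4 sham mice. As their medians lay within the span of the sham mice, the value near 0 restates this and is no separate result.

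**Figure D1:**
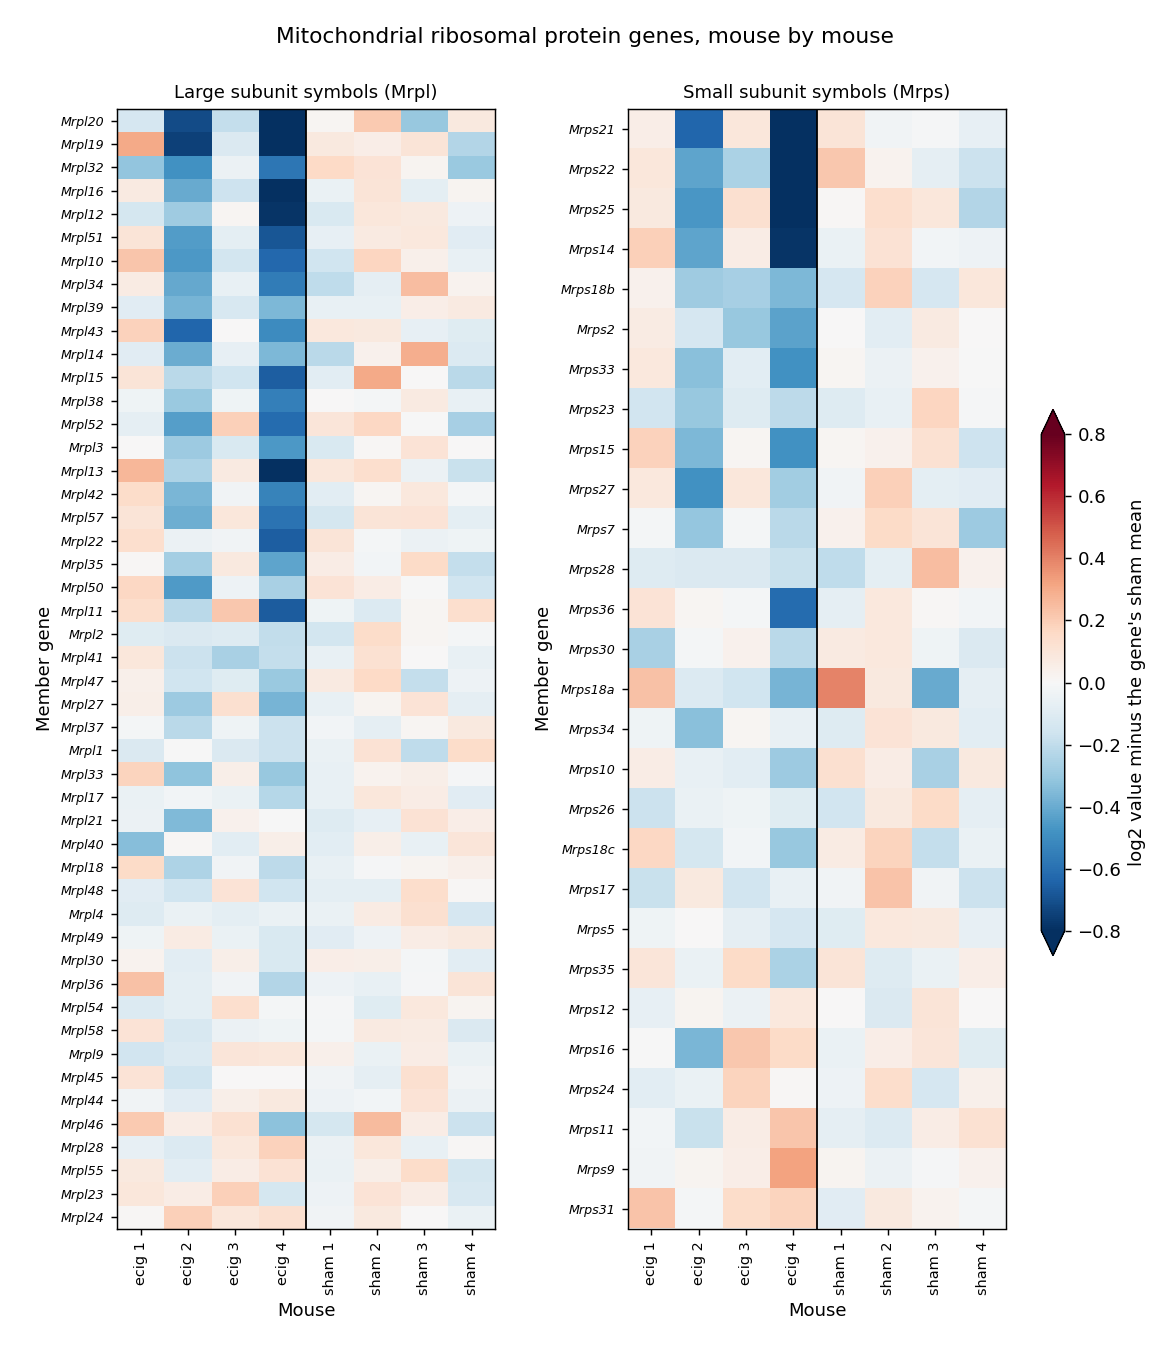
Each row is 1 member gene and each column 1 mouse, ecig mice left of sham mice, and colour gives the log2 value minus the gene's own sham mean (blue lower, red higher, colour scale ending at 0.8 log2 units to either side). Genes are ordered by the difference between the groups, lowest at the top. The blue columns are ecig mice 4 and 2, whose medians were -0.27 and -0.19. Genes near the bottom of each panel have the highest differences, yet 1 of these mice can be low there. Examples are Mrpl46 (ecig mouse 4, -0.33) and Mrps16 (ecig mouse 2, -0.37).

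The 2 subunits had similar medians, while ecig mice 2 and 4 left the sham range in a larger share of large subunit members. Members with a large subunit symbol had a median difference of -0.13, with 42 of 48 lower, and those with a small subunit symbol -0.11, with 24 of 28 lower. Mouse by mouse, the large subunit median stood at 0.03, -0.22, -0.03 and -0.30 in ecig mice 1 to 4 and at -0.05, 0.05, 0.05 and -0.05 in sham mice 1 to 4. The small subunit median stood at 0.04, -0.14, -0.01 and -0.23 in ecig mice 1 to 4 and at -0.01, 0.08, 0.02 and -0.05 in sham mice 1 to 4. The large minus small gap was thus -0.01, -0.07, -0.01 and -0.07 in ecig mice and -0.04, -0.02, 0.03 and 0.00 in sham mice, so that ecig mice 2 and 4 had the widest gaps and the groups overlapped. These are levels relative to each gene's own sham mean, since signals of different probe sets cannot be set against each other, and no test was made of them.

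**Figure D2:**
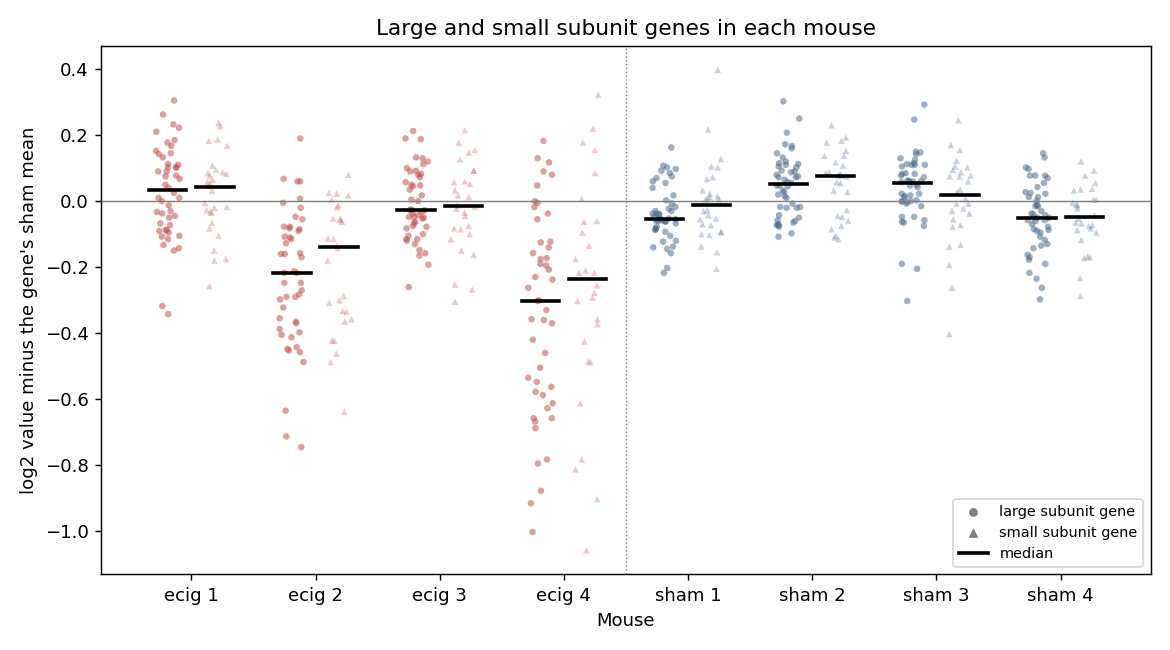
Points are member genes (circles large subunit, triangles small subunit), plotted per mouse as log2 value minus the gene's sham mean, with black bars for medians; ecig mice are red and stand left of the sham mice in blue. The medians of both subunits lie lowest in ecig mouse 4 (-0.30 large, -0.23 small) and next lowest in ecig mouse 2, and the points of these mice also spread most widely.

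A split by descent gave medians below 0 in every part, of unlike size in the small subunit. By place in the mammalian ribosome, 30 members are large subunit proteins with a bacterial counterpart (median difference -0.13, 26 lower) and 20 are large subunit proteins found only in mitochondria (-0.11, 18 lower). In the small subunit, 15 members have a bacterial counterpart (-0.08, 12 lower) and 10 are mitochondria-specific (-0.17, 9 lower). Mrps18a and Mrps18b, relatives of a bacterial protein whose place Mrps18c takes, were counted with the mitochondria-specific proteins. The mitochondria-specific small subunit proteins had their median at -0.32 in ecig mouse 2 and -0.26 in ecig mouse 4, and at 0.08 and -0.01 in ecig mice 1 and 3. Small subunit proteins with a bacterial counterpart had theirs at -0.14 and -0.17 in ecig mice 2 and 4, and at -0.01 and -0.02 in ecig mice 1 and 3. The gap between these parts was not tested. Without ecig mice 2 and 4 the 4 medians lay between 0.00 and 0.01. The difference did not follow the signal level of a member: its median was -0.14, -0.09 and -0.11 in the 26 dimmest, the next 25 and the 25 brightest members.

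Among large subunit members, the widest difference was that of Mrpl20, whose bacterial counterpart binds the ribosomal RNA early in assembly. It had 7.60, 7.02, 7.54 and 6.73 in ecig mice 1 to 4, against 7.75, 7.94, 7.43 and 7.81 in sham mice 1 to 4. Ecig mice 4 and 2 were the lowest, and ecig mice 1 and 3 lay above sham mouse 3, so the groups overlapped (difference -0.51 ± 0.20 SE, limma adjusted p = 0.838). Mrpl32, which is matured by a protease of the inner membrane before it joins the ribosome, had 7.03, 6.86, 7.30 and 6.77 in ecig mice and 7.51, 7.46, 7.37 and 7.05 in sham mice. Here ecig mouse 1 was low as well and sham mouse 4 lay among the ecig mice (difference -0.36 ± 0.14 SE, and -0.18 without ecig mice 2 and 4). Mrpl39, one of the proteins only mitochondria have, had 7.91, 7.63, 7.87 and 7.64 in ecig mice and 7.94, 7.94, 8.05 and 8.07 in sham mice. Ecig mouse 1 was only just below the lowest sham mouse (difference -0.24 ± 0.10 SE, and -0.11 without ecig mice 2 and 4).

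The promoters of Mrpl32 and Mrpl39 and of members described further on are shown because each holds a motif marked below, while their differences between the groups were of unlike extent. No marked motif stands in all of the windows shown. The window of Mrpl20, the member of widest difference, held none of the marked motifs and is not shown. The windows are those of RefSeq on GRCm38.p6, with 250 bases before and 50 after the gene start, read 5′ to 3′ on the strand of the gene. They lie at chr13:14612988-14613287 (minus strand) for Mrpl32, chr16:84735195-84735494 (minus) for Mrpl39, chr9:98601630-98601929 (minus) for Mrps22, chr9:105053018-105053317 (plus) for Mrpl3, chr7:28741772-28742071 (minus) for Mrps12 and chr3:94443086-94443385 (plus) for Mrpl9. Capitals mark CCGGAAG, a core of the ETS family that includes GABPA, AAGATGGC, a YY1 motif (GCCATCTT where it lies on the other strand), and the motif of NRF1, a palindrome made of GCGCA followed directly by TGCGC.
Mrpl32: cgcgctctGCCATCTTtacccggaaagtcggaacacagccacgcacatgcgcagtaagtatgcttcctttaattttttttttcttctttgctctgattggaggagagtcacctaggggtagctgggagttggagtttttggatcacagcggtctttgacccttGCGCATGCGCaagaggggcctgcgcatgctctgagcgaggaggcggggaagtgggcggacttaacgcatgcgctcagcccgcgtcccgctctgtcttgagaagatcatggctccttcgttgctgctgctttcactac
Mrpl39: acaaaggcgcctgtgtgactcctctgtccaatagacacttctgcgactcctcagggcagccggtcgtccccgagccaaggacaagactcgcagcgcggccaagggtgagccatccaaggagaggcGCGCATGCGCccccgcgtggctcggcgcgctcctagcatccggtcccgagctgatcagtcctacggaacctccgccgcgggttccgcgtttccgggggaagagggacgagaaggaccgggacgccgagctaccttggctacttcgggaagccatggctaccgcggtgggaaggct
Mrps22: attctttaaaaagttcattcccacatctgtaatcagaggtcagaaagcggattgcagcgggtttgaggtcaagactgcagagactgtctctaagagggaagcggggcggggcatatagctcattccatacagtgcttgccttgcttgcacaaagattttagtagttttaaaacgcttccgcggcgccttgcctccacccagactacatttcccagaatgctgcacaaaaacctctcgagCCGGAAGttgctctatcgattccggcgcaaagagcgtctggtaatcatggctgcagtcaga
Mrpl3: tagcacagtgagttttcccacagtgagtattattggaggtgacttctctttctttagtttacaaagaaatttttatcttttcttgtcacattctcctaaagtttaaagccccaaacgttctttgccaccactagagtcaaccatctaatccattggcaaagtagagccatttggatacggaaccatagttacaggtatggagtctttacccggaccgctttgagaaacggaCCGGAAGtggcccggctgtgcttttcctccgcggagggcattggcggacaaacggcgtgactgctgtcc
Mrps12: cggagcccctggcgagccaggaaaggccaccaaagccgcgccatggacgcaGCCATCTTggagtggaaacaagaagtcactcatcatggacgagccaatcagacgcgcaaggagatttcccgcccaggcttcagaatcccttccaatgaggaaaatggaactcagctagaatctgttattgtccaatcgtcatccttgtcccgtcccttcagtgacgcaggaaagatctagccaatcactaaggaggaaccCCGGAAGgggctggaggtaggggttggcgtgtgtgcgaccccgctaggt
Mrpl9: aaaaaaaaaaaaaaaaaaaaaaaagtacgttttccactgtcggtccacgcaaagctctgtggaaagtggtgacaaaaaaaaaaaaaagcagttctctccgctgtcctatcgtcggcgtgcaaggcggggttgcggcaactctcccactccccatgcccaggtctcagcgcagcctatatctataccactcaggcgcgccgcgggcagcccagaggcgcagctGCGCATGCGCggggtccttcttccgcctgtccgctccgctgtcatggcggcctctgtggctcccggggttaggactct
GABPA, YY1 and NRF1 are transcription factors known to act on many nuclear genes for mitochondrial proteins. CCGGAAG begins 11 bases before the start in Mrps22, 19 bases before it in Mrpl3 and 2 bases into the transcript in Mrps12. The NRF1 motif begins 87 bases before the start in Mrpl32, 125 in Mrpl39 and 28 in Mrpl9.

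Of the 76 members, 67 had a promoter window, 1 per gene, and 15691 genes of the array had one. CCGGAAG, searched on both strands, stood in 24 of the 67 (35.8%, and 12.2% of all windows), and AAGATGGC in 12 (17.9%, and 3.32% of all windows). One or the other stood in 33 of the 67 (49.3%, and 14.9% of all windows). The NRF1 palindrome stood in 3 (4.48%, and 1.40% of all), and a looser form of it, GCGCA, then any base N, then GCGC, in 13 (19.4%, and 7.05% of all). The shares of CCAAT (38.8% and 38.8%), GGGCGG (49.3% and 48.2%) and CACGTG (7.46% and 8.18%) were close to those of all windows, and TATAAA stood in 5.97% of the members' windows and 13.1% of all. The GC content of the windows had a median of 58.0% in the members and 57.0% in all. Of the 28 matches to CCGGAAG in the members, 89.3% began less than 100 bases before the start or after it, against 75.5% over all genes.

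The median difference was -0.15 for members with CCGGAAG and -0.11 for those without, and -0.11 with AAGATGGC and -0.12 without. It was -0.24 for the 3 members with the NRF1 palindrome and -0.12 for the others, and -0.03 for the 4 with TATAAA and -0.12 for the others, both sets too few to read. For the looser NRF1 form and the other motifs of the search the medians lay between -0.11 and -0.09 with the motif and between -0.13 and -0.12 without. Of the 3 members with the NRF1 palindrome, Mrpl32 and Mrpl39 were among those of smallest p, while Mrpl9, added here for its motif with its values known, differed by -0.02 ± 0.09 (SE). Mrpl9 had 7.90, 7.94, 8.15 and 8.14 in ecig mice and 8.09, 8.0, 8.11 and 8.0 in sham mice, and its lowest values were ecig mice 1 and 2. A match is a run of letters in a window, and no binding was measured.

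**Figure D3:**
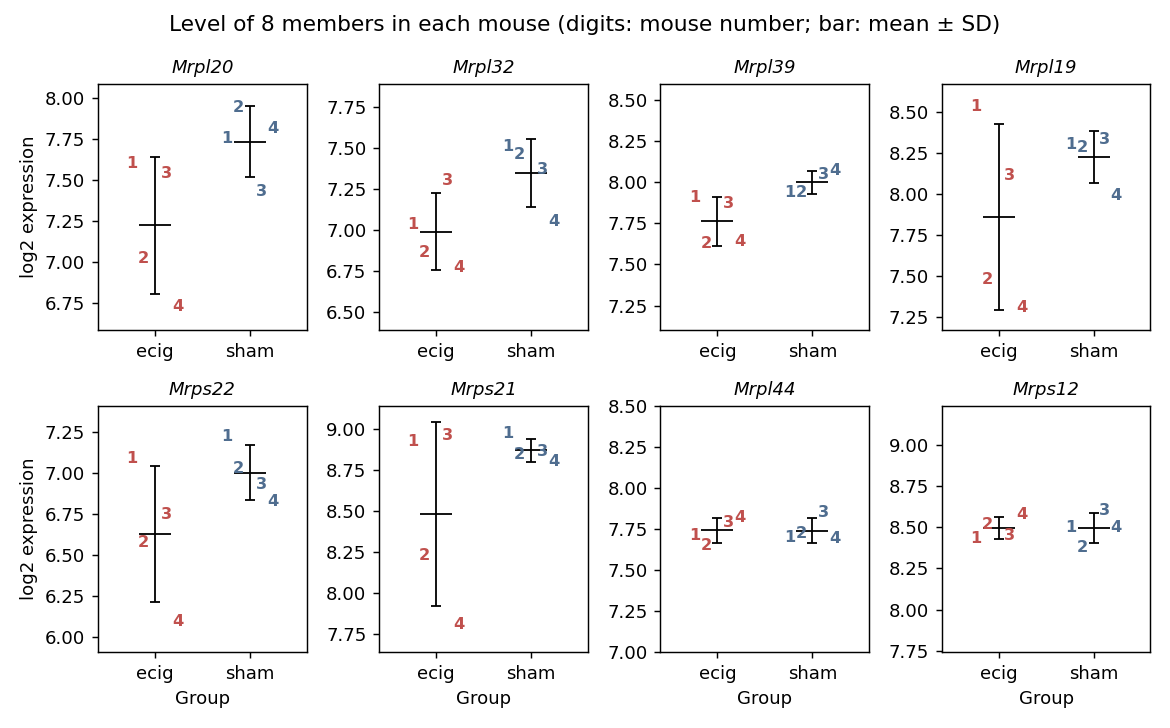
Each panel shows the log2 expression of 1 member by mouse number, ecig left and sham right, with the mean and SD of 4 mice, on axes of equal height. In Mrpl20, Mrpl19, Mrps22 and Mrps21 ecig mouse 4 is lowest and ecig mouse 2 next, and Mrpl44 and Mrps12 keep the 8 mice within a narrow band.

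The spread among ecig mice was widest in a few members. Mrpl19, whose bacterial counterpart lies at the interface of the subunits, had the largest SD over the 8 mice of any member (0.432), with 8.53, 7.48, 8.11 and 7.31 in ecig mice and 8.30, 8.28, 8.33 and 7.99 in sham mice. Ecig mouse 1 was the highest of all 8 and ecig mice 4 and 2 the lowest, so the difference of -0.37 ± 0.24 (SE) became 0.09 without ecig mice 2 and 4. Mrps21, a small subunit protein of bacterial descent, came next (SD 0.422), with 8.92, 8.23, 8.96 and 7.81 in ecig mice and 8.97, 8.84, 8.86 and 8.80 in sham mice. Its 4 sham values lay within a narrow band, with ecig mice 1 and 3 inside it and ecig mouse 4 lower than its sham mean by 1.06 (difference -0.39 ± 0.23 SE, and 0.07 without ecig mice 2 and 4). Mrpl20 followed (SD 0.410). Over all members, the SD was larger among ecig than among sham mice in 59 of 76, with medians of 0.18 and 0.10, and it was larger among ecig mice in 65.8% of all probe sets.

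The proteins of the stalk, which recruits the translation factors, shared the low values of ecig mouse 4. Mrpl12, which forms the stalk and is also known to bind the mitochondrial RNA polymerase, had 8.32, 8.18, 8.48 and 7.68 in ecig mice and 8.34, 8.55, 8.54 and 8.42 in sham mice (difference -0.30 ± 0.16 SE, and -0.06 without ecig mice 2 and 4). Mrpl10, which anchors the stalk, had 7.52, 6.84, 7.15 and 6.67 in ecig mice and 7.14, 7.47, 7.34 and 7.24 in sham mice (-0.25 ± 0.17 SE, and 0.04). Mrpl11, at its base, had 7.93, 7.57, 8.0 and 7.12 in ecig mice and 7.75, 7.68, 7.80 and 7.92 in sham mice (-0.13 ± 0.18 SE, and 0.17). In Mrpl10 and Mrpl11 the highest value also belonged to an ecig mouse, and the groups overlapped in all of the stalk genes.

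Other core members of the large subunit were lower by similar amounts. Mrpl16, whose bacterial counterpart lies beside the bound tRNAs, differed by -0.32 ± 0.16 (SE), with ecig mouse 1 second highest of the 8 at 7.08 and ecig mouse 4 lowest at 6.21. Mrpl3, in which human variants cause cardiomyopathy, had 7.87, 7.58, 7.75 and 7.41 in ecig mice and 7.75, 7.88, 7.98 and 7.87 in sham mice (difference -0.22 ± 0.11 SE). Mrpl14, which the assembly factor Malsu1 binds, differed by -0.23 ± 0.13 (SE). The central protuberance, a ridge at the top of the large subunit, gave mixed values: Mrpl38 differed by -0.23 ± 0.12 (SE), Mrpl40 by -0.09 ± 0.10 and Mrpl46 by 0.01 ± 0.14. Mrpl40 was lowest in ecig mouse 1 (7.76) and stood at 8.11 and 8.15 in ecig mice 2 and 4, within the sham range of 8.02 to 8.20. It was thus a member in which ecig mice 2 and 4 were not low.

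Around the exit tunnel the members differed among themselves. Mrpl24 had the largest positive difference of the large subunit members, with 9.58, 9.76, 9.66 and 9.70 in ecig mice and 9.54, 9.65, 9.57 and 9.52 in sham mice (difference 0.11 ± 0.08 SE). Mrpl23 had 7.92, 7.89, 8.02 and 7.69 in ecig mice and 7.79, 7.94, 7.89 and 7.70 in sham mice (0.05 ± 0.10 SE), so its mean was higher in ecig mice although ecig mouse 4 was the lowest of the 8. Mrpl44, which carries an RNase III-like fold, differed by 0.00 ± 0.08 (SE), with the smallest SD of all members (0.069). Mrpl44 had 7.71, 7.65, 7.79 and 7.82 in ecig mice and 7.70, 7.72, 7.85 and 7.69 in sham mice, so the groups lay on top of each other. Mrpl22, a tunnel protein too and the dimmest member but for Mrpl36, was at 6.54, 6.36, 6.38 and 5.75 in ecig mice and at 6.51, 6.39, 6.36 and 6.37 in sham mice, low in ecig mouse 4 alone (-0.15 ± 0.15 SE).

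Of the 3 brightest members, Mrpl33 and Mrpl42 had the same mice low and Mrpl24, given above, had them above all sham mice. Mrpl33 had 10.26, 9.76, 10.13 and 9.78 in ecig mice and 10.02, 10.11, 10.13 and 10.07 in sham mice, and Mrpl42 had 9.91, 9.40, 9.74 and 9.23 in ecig mice and 9.68, 9.78, 9.85 and 9.75 in sham mice. In Mrpl33 and Mrpl42 ecig mouse 1 was the highest of all 8 and ecig mice 2 and 4 the lowest. The group differences were -0.10 ± 0.12 (SE) for Mrpl33 and -0.20 ± 0.14 for Mrpl42. Of the remaining large subunit members of the naming rule, Mrpl41, which is known to bind BCL2, differed by -0.13 ± 0.10 (SE), Mrpl36, the dimmest member, by -0.03 ± 0.11, Mrpl30 by -0.03 ± 0.08 and Mrpl55 by 0.04 ± 0.09.

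In the small subunit, the widest differences after Mrps21 were those of Mrps22 and Mrps25, both mitochondria-specific. Mrps22, in which human variants are known to cause ovarian insufficiency, had 7.09, 6.58, 6.75 and 6.10 in ecig mice and 7.22, 7.03, 6.93 and 6.83 in sham mice. Ecig mice 2, 3 and 4 lay below the sham mice and ecig mouse 1 lay among them (difference -0.38 ± 0.19 SE, and -0.08 without ecig mice 2 and 4). Mrps25 had 8.13, 7.59, 8.18 and 7.24 in ecig mice and 8.06, 8.19, 8.14 and 7.82 in sham mice (-0.27 ± 0.20 SE, and 0.10). Mrps14, of the head of the subunit, followed with 8.68, 8.07, 8.55 and 7.71 in ecig mice and 8.44, 8.61, 8.47 and 8.45 in sham mice (-0.24 ± 0.19 SE, and 0.12). In Mrps14 ecig mouse 1 was again the highest of the 8.

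Some small subunit members were lower in more of the ecig mice. Mrps23 had 8.96, 8.81, 9.01 and 8.90 in ecig mice and 9.01, 9.05, 9.28 and 9.10 in sham mice, with ecig mouse 3 level with the lowest sham mouse and the other ecig mice below it (difference -0.19 ± 0.09 SE, and -0.12 without ecig mice 2 and 4). Mrps2 had 8.76, 8.56, 8.39 and 8.27 in ecig mice and 8.70, 8.61, 8.77 and 8.70 in sham mice, with ecig mice 2, 3 and 4 below all sham mice (-0.20 ± 0.11 SE, and -0.12). Mrps18b, 1 of 3 Mrps18 paralogues, differed by -0.22 ± 0.12 (SE), and by -0.11 without ecig mice 2 and 4. Its paralogues Mrps18a and Mrps18c differed by -0.10 ± 0.18 and -0.08 ± 0.12 (SE), and in Mrps18a the sham mice alone ran from 6.88 to 7.68.

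Mrps12, the protein of the decoding centre, stood at the same level in both groups, with 8.43, 8.52, 8.45 and 8.58 in ecig mice and 8.50, 8.38, 8.60 and 8.50 in sham mice (difference 0.00 ± 0.09 SE). Higher means were found for Mrps31 (0.14 ± 0.09 SE), Mrps9 (0.09 ± 0.10) and Mrps11 (0.02 ± 0.11). Mrps31 had 8.28, 8.04, 8.20 and 8.23 in ecig mice and 7.96, 8.13, 8.08 and 8.04 in sham mice, and all ecig mice but mouse 2 exceeded the sham mice. In Mrps9 and Mrps11 the highest value was that of ecig mouse 4 (9.26 and 8.88), the mouse that was lowest in 41 other members. The other named members of this group differed by -0.15 ± 0.14 (SE) for Mrps27, -0.14 ± 0.12 for Mrps7, -0.11 ± 0.10 for Mrps30, -0.10 ± 0.10 for Mrps34, -0.06 ± 0.08 for Mrps5, -0.01 ± 0.11 for Mrps35 and 0.00 ± 0.13 for Mrps16. Mrps36, whose product is not part of the ribosome, differed by -0.12 ± 0.15 (SE), with 7.68, 7.59, 7.56 and 6.96 in ecig mice and 7.50, 7.66, 7.58 and 7.55 in sham mice. The other 32 members, 25 of the large and 7 of the small subunit, had differences from -0.28 for Mrpl51 to 0.02 for Mrpl28, with a median of -0.11 and 30 lower.

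**Figure D4:**
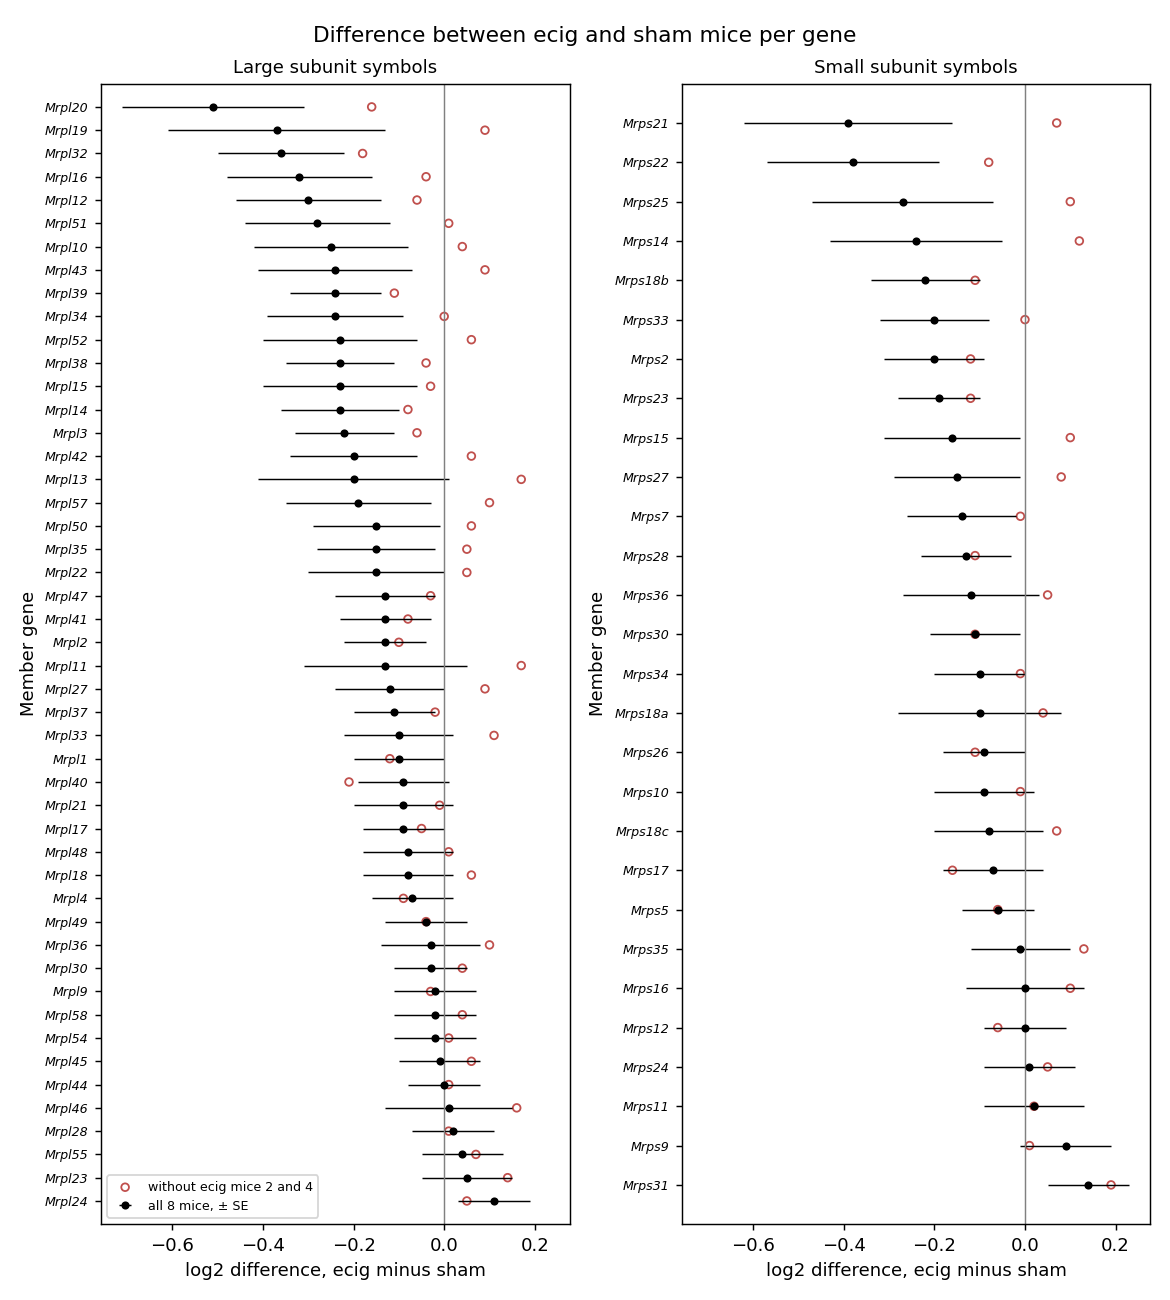
Filled points give the log2 difference, ecig minus sham, of each member with its SE from limma over all 8 mice, and open red circles the difference without ecig mice 2 and 4, with large subunit symbols left and small subunit symbols right. The filled points run from -0.51 for Mrpl20 to 0.14 for Mrps31, and the open circles lie on both sides of 0, with a median of 0.01.

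Lists of the rest of the mitochondrial translation machinery had medians on both sides of 0. Mitoribosomal proteins under other symbols were lower in 4 of 4 measured members (median difference -0.08), led by Chchd1 with 7.15, 6.83, 7.14 and 6.31 in ecig mice and 7.13, 7.47, 7.04 and 7.18 in sham mice. Of 26 factors that assemble the ribosome or modify its RNA, 9 were lower and 17 higher (median 0.08, and 0.00 without ecig mice 2 and 4). At an unadjusted p under 0.05 in limma 2 of the 26 were higher and 0 lower, against 2.91% and 2.5% of the array. The 2 higher genes were Mtg1, a GTPase of large subunit assembly (0.35 ± 0.11 SE, all 4 ecig mice above all sham mice), and Tfb1m, which methylates the small subunit RNA (0.33 ± 0.15 SE). Of 15 translation factors 8 were lower (median -0.01), where Guf1, a GTPase of the elongation step, was higher in all 4 ecig mice than in any sham mouse (0.25 ± 0.08 SE) and Taco1, an activator of COX1 translation, differed by -0.35 ± 0.17 (SE). Mitochondrial aminoacyl-tRNA synthetases were lower in 13 of 16 (median -0.08), and without ecig mice 2 and 4 in 12 of 16 (-0.05). Their mean level was 7.38 to 7.45 in ecig and 7.47 to 7.52 in sham mice. Mitochondrial RNA processing genes were lower in 8 of 13 (-0.03, and 0.02 without ecig mice 2 and 4). Genes of mitochondrial DNA transcription and replication were lower in 5 of 12 (0.01, and -0.03 without these mice). All 4 ecig mice lay above all sham mice in 2 of the 26 assembly factors and 1 of the 15 translation factors, against 1.38% of the array. In limma 0 genes of any of these lists passed adjustment over all probe sets, and the adjusted p of Mtg1, Tfb1m, Guf1 and Taco1 was 0.838.

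Import, mitochondrial content and respiratory chain genes had low values in the same mice. The import machinery was lower in 21 of 26 genes (median -0.16), with medians of -0.03, -0.21, -0.05 and -0.27 in ecig mice 1 to 4. Timm10, Timm23 and Timm17a, of the import machinery, differed by -0.41 ± 0.13, -0.39 ± 0.13 and -0.28 ± 0.10 (SE). In these 3 genes all 4 ecig mice lay below all sham mice, not ecig mice 2 and 4 alone. That held for 3 of 26 import, 0 of 18 content and 1 of 84 respiratory chain genes, against 1.35% of the array. All ecig mice lay above in 0, 0 and 1 genes of these lists, against 1.38% of the array. The import list kept a median of -0.07, with 17 of 26 lower, without ecig mice 2 and 4. Genes of mitochondrial content were lower in 15 of 18 (median -0.10, and 0.00 without ecig mice 2 and 4), among them Cs, citrate synthase, with 9.89, 9.24, 9.81 and 9.25 in ecig mice and 9.84, 9.74, 9.92 and 9.78 in sham mice. Nuclear genes of the respiratory chain and ATP synthase were lower in 71 of 84 (median -0.15), at 0.02, -0.27, 0.05 and -0.37 in ecig mice 1 to 4 relative to sham, and without ecig mice 2 and 4 the median was 0.03 with 29 of 84 lower. Of 10 regulators of mitochondrial biogenesis 5 were lower and 5 higher, with differences from -0.32 to 0.40 (median -0.01) and medians of 0.04, 0.08, -0.04 and -0.04 in ecig mice 1 to 4. The 3 of smallest p were Pprc1, a coactivator, at -0.32 ± 0.20 (SE), Myc at -0.17 ± 0.14 and Nfe2l2 at 0.10 ± 0.09. After adjustment over the array limma called 0 genes of these lists, and at an unadjusted p under 0.05 it had 4 import genes and 4 respiratory chain genes lower and 1 respiratory chain gene higher, where 2.5% of the array was lower and 2.91% higher at that threshold.

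Proteins of the cytosolic ribosome had values of the opposite sign. Of 62 genes, paralogous forms included, 47 were higher and 15 lower in ecig mice (median difference 0.07), with medians of -0.06, 0.11, 0.09 and 0.09 in ecig mice 1 to 4 and 0.00, 0.06, -0.01 and -0.05 in sham mice 1 to 4. Ecig mice 2 and 4 thus had cytosolic ribosomal medians above the sham mean and mitochondrial ribosomal medians below it. The higher cytosolic values were not particular to these mice. Ecig mouse 3 had the same cytosolic median as ecig mouse 4, with a mitochondrial ribosomal median of -0.02, and sham mouse 2 was at 0.06. Without ecig mice 2 and 4 the cytosolic median was 0.01, with 28 of 62 lower. The difference between the 2 lists was not tested.

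**Figure D5:**
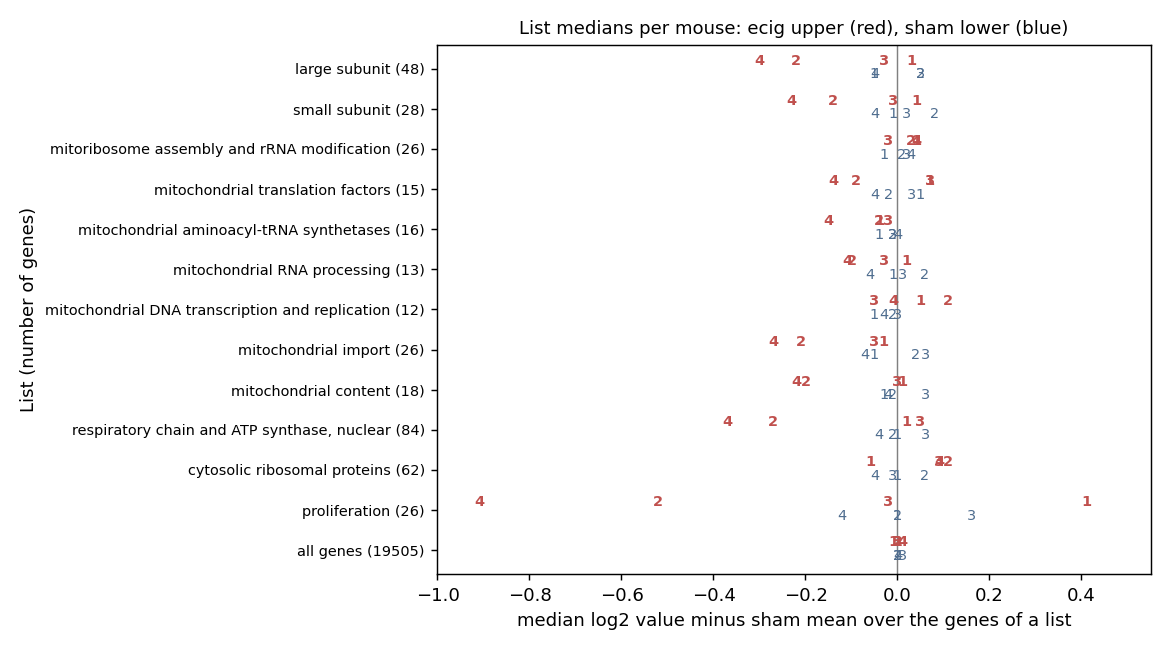
For each list of genes (number of genes in brackets) the digits 1 to 4 mark the mice of each group, ecig above in red and sham below in blue, at the median over the list of the log2 value minus the gene's sham mean. Ecig mice 4 and 2 lie left of all sham mice for both ribosomal subunits, import, mitochondrial content and the respiratory chain. For cytosolic ribosomal proteins they lie right of 0, as do ecig mouse 3 and sham mouse 2.

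Proliferation genes were also low in ecig mice 4 and 2, and markers of several cell types stood outside the sham range in some ecig mice, not always these. The proliferation list was lower in 25 of 26 genes, with medians of 0.41, -0.52, -0.02 and -0.91 in ecig mice 1 to 4 relative to sham, lowest of the 8 mice in ecig mice 4 and 2 and highest in ecig mouse 1. Without ecig mice 2 and 4 its median difference was 0.18, with 4 of 26 lower, against -0.28 over all mice. The mean level of the epithelium markers (7 of 9 lower) was 8.97, 8.81, 8.73 and 8.21 in ecig mice and 8.68 to 9.63 in sham mice, lowest in ecig mouse 4. That of smooth muscle markers (8 of 8 lower) was 11.33, 10.70, 11.32 and 11.10 in ecig mice and 11.01 to 11.44 in sham mice, and that of stroma markers (3 of 7 lower) 10.59, 10.18, 10.64 and 10.64 in ecig mice and 10.53 to 10.71 in sham mice, both lowest in ecig mouse 2. Adipocyte markers (5 of 6 higher) were at 6.46, 6.74, 5.12 and 5.32 in ecig mice and 5.15 to 5.61 in sham mice, high in ecig mice 1 and 2. The brown adipocyte markers (1 of 4 lower) were dim in all mice, at 4.69 to 4.86 in ecig mice and 4.6 to 4.73 in sham mice. Ucp1 averaged 4.13 in ecig and 4.08 in sham mice. Cox8b averaged 5.52 in ecig and 5.17 in sham mice (0.34 ± 0.08 SE, limma adjusted p = 0.838). In Cox8b all 4 ecig mice lay above all sham mice, which held for 1.38% of the array. Levels of macrophage markers (3 of 5 lower) ran from 6.56 to 7.28 in ecig and 6.91 to 7.22 in sham mice, of endothelium markers (0 of 7 lower) from 8.65 to 9.12 in ecig and 8.42 to 9.07 in sham mice, and of lymphocyte markers (3 of 5 lower) from 5.50 to 5.92 in ecig and 5.57 to 5.84 in sham mice. Granulocyte markers (4 of 6 lower) ran from 5.34 to 5.51 in ecig and 5.54 to 5.80 in sham mice. Oviduct markers (0 of 4 lower) were at 6.42, 7.03, 6.70 and 6.88 in ecig mice 1 to 4 and 6.39 to 6.68 in sham mice, highest of the 8 mice in ecig mice 2 and 4. Ovary markers (1 of 5 lower) were at 5.82, 5.87, 5.99 and 6.19 in ecig mice 1 to 4 and 5.83 to 5.98 in sham mice, highest in ecig mouse 4. In whole uterus, fewer cells of a type and less RNA per cell cannot be told apart, and the part of these markers in the values of the mitochondrial ribosomal genes was not tested.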

How the data were processed

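Per the labels, biotin-labelled RNA of whole uterus from 8 mice (4 ecig, 4 sham) was hybridised to 1 array each. The authors deposited log2 expression values for 22206 probe sets; the scale is read from their range (2.75 to 13.64), and the sorted columns differ by at most 0.0198. Partek is listed per the submitters' processing notes. The sources used here do not give the background correction or the scaling; scaling to a common distribution would set a change shared by all genes to 0. The platform annotation gives 19572 probe sets 1 symbol and 2634 none, and the probe set of highest mean stands for a gene. No genome build is named for the array.

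Each probe set's difference, ecig minus sham, came from limma 3.58.1 (R 4.3.3; lmFit and eBayes without covariates), and p-values were adjusted by Benjamini-Hochberg across the array, with 0.05 as the threshold. Medians over members carry no test. On simulated arrays with 22206 probe sets limma recovered 36.5% of 1.5-fold and 84.5% of 2.0-fold changes. The groups were taken from the titles. Alternatives were other normalizations, filters, variance models, a replicate block and leaving out mice. Members, lists, roles and motifs were chosen with earlier results of these data known; 44 members were named by a rule on p, mean, SD, difference and role.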

Additional observations from a re-analysis of the deposited data

Results flagged for a closer look

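In 92 groups of 4 mice (44 named members and the medians of both subunits, in each group), Dixon's test set 1 mouse apart from its group in 3, where chance gives about 1 in 20. Mrps36 in ecig mouse 4 was 6.96, with the other ecig mice at 7.56 to 7.68. Mrpl19 in sham mouse 4 was 7.99, with the other sham mice at 8.28 to 8.33. Mrpl22 in sham mouse 1 was 6.51, with the other sham mice at 6.36 to 6.39.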

How the results depend on the processing

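With 4 mice in each group and differences of under 1.2-fold in most members, limma called 0 members under every setting run, and 0 probe sets except for 1 without ecig mouse 1. Leaving out mice moved the counts and medians most. At an unadjusted p under 0.05 there were 3 lower members, and 0 to 18 when 1 mouse was left out (18 without ecig mouse 1, 7 without ecig mouse 3, 0 without ecig mouse 2 or 4, and 1 without any of the sham mice). Members with all ecig mice below all sham mice numbered 1, and 1 to 7 with 1 mouse left out (7 without ecig mouse 1, 5 without ecig mouse 3 or sham mouse 1, 4 without sham mouse 4 and 2 without sham mouse 3). With fewer mice, groups of any gene are more easily free of overlap. The shares of the array with a mouse left out are not given here, so neither these counts nor those at an unadjusted p under 0.05 can be read against the array. Lower members numbered 61 to 69 with 1 mouse left out. Without ecig mouse 4 the median difference was -0.074 for the large and -0.068 for the small subunit, and without ecig mouse 1 it was -0.188 and -0.150. Without ecig mice 2 and 4, 33 members were lower, 0 at an unadjusted p under 0.05, with medians of 0.010 (large) and 0.006 (small). Because these mice held the low values, medians near 0 without them are no separate check. The large minus small gap of -0.020 ran from -0.038 to 0.007 with 1 mouse left out and was 0.004 without ecig mice 2 and 4. Quantile normalization, median centring, eBayes with a trend or robust estimation and the replicate block left both medians at -0.129 and -0.108. These settings could hardly move a median, so the equal values are no sign of stability. The deposited columns already had nearly the same distribution, the variance models do not change a difference, and nor does a block with groups of equal size. Array weights gave -0.099 and -0.095. Same-numbered mice correlated at 0.08, -0.24, 0.08 and 0.08 in their deviations from the group means, and other pairs at -0.35 to 0.43. These values show no pairing by number, but so few cannot exclude one. With the replicate block 3 members were again lower at an unadjusted p under 0.05 in limma and 0 were called. Since each member has 1 probe set, averaging probe sets of a gene changed nothing. Assigning Mrps18a, Mrps30 and Mrps36 by structure, chosen after seeing the data, gave -0.123 and -0.104.

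Of 742 differences of the 44 named members under other settings, 693 kept their sign. This count says little about stability. The normalizations, filters, variance models and replicate block leave a member's difference unchanged or nearly so, and its sign could hardly turn under them. Without ecig mice 2 and 4 the sign turned for 17 members, with differences of 0.036 for Mrpl10, 0.175 for Mrpl11, 0.093 for Mrpl19, 0.053 for Mrpl22, 0.036 for Mrpl30, 0.114 for Mrpl33, 0.103 for Mrpl36, 0.061 for Mrpl42, 0.125 for Mrps14, 0.10 for Mrps16, 0.037 for Mrps18a, 0.072 for Mrps18c, 0.072 for Mrps21, 0.099 for Mrps25, 0.084 for Mrps27, 0.130 for Mrps35 and 0.050 for Mrps36. With array weights the differences of Mrps16 and Mrps35 were 0.009 and 0.024. Leaving out 1 mouse at a time turned the sign of 12 members, whose differences ran from -0.025 to 0.038 for Mrpl44, -0.052 to 0.125 for Mrpl46, -0.045 to 0.086 for Mrps11, -0.239 to 0.029 for Mrps18a, -0.071 to 0.068 for Mrps35, -0.076 to 0.116 for Mrps16, -0.041 to 0.031 for Mrps12, -0.113 to 0.042 for Mrpl36, -0.004 to 0.094 for Mrpl55, -0.248 to 0.044 for Mrpl11, -0.241 to 0.020 for Mrpl22 and -0.200 to 0.040 for Mrps36. The cause of these changes was not tested beyond the mice left out. The turns of sign without ecig mice 2 and 4 follow from the low values of these mice.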
